A study of Rattus norvegicus with 14 samples.

Results

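Oxidative phosphorylation subunit genes encode the proteins of the 5 complexes with which mitochondria oxidise nutrients and make ATP. They were found as the probe sets with exactly 1 gene symbol that begins as the nuclear genes of these complexes do (Nduf with a letter a, b, c, s or v and a number, Uqcr, Cox4 to Cox8, Atp5, and Sdha to Sdhd), and the brightest probe set was kept for each gene. This gave 76 of the 14497 genes tested. The set held 31 genes of complex I, 4 of complex II, 7 of complex III, 16 of complex IV and 15 of ATP synthase. The other 3 genes were Atp5if1, which encodes an inhibitor of ATP synthase, and 2 genes that RefSeq names as pseudogenes, Cox6c-ps1 and Ndufs6-ps1. Symbols from the array's annotation and from RefSeq gave the same members. Several subunit genes, among them Cox6b1 and Cox7a1, and the genes of the mitochondrial DNA were not analysed here.

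Expression was measured in the foreskin of Sprague Dawley rats on postnatal day 5. The dams had been dosed daily by oral gavage on gestational days 16 to 20 with the vehicle, corn oil, or with 5 mg/kg/day of flutamide, a drug that blocks the androgen receptor. Each of the 7 corn oil and 7 flutamide samples was RNA pooled from 2 foreskins of 1 litter, measured on 1 Affymetrix Gene 1.0 ST array, and the litter was the replicate. All values are log2 values made by the authors with RMA, so a difference of 1 stands for a doubling, and a brighter probe set does not by itself stand for more RNA than a dimmer one of another gene. Epidermal and dermal markers were bright, as for a skin sample: Krt1 of suprabasal keratinocytes had a mean of 11.9 ± 0.08 and the dermal proteoglycan gene Dcn 11.1 ± 0.08 (SD, n = 7 corn oil litters each). Whole tissue was measured, so fewer cells of a type and less RNA per cell cannot be told apart.

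Complex I takes electrons from NADH, and complex II takes them from succinate in the citric acid cycle. Complex III passes them from ubiquinol to cytochrome c, and complex IV, cytochrome c oxidase, passes them to oxygen. Complexes I, III and IV pump protons, and ATP synthase uses the returning protons to make ATP. The nuclear subunit genes are expressed in almost all cells, and in muscle some complex IV subunits are replaced by isoforms of their own. Their promoters are known for sites of NRF-1 and of ETS family factors such as GABP.

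No oxidative phosphorylation gene passed the test for a difference between flutamide and corn oil litters. In limma's test with Benjamini-Hochberg adjustment over all 14497 genes, 0 of the 76 had an adjusted p under 0.05, where 0.0069% of all genes did. At an unadjusted limma p under 0.05 there were 4 members with lower values in flutamide litters (5.26%, against 3.46% of all genes) and 1 with higher values (1.32%, against 5.7%). No member had groups that did not overlap, where 0.124% of all genes did. The lowest adjusted p of a member in the limma fit was 0.363, for Ndufa5. The lowest over 27 fits, this one and those with other settings or fewer litters, was 0.291, and none of them called a member.

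The differences were small. On the brightest probe set, the 95% confidence interval of each of the 76 members left out a 1.5-fold difference, whether higher or lower. So did that of 99.3% of all genes. Dimmer second probe sets, some of them with larger differences and standard errors, were not counted here. For 72 members the interval left out 1.3-fold (94.7%, against 92.9%). The 4 whose interval reached past 1.3-fold were all accessory subunits of complex I, Ndufa2, Ndufa3, Ndufa5 and Ndufa10, and each reached past it on the side of lower values in flutamide litters. The standard error of a member's difference ran from 0.05 to 0.14 with a median of 0.07.

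Most members had slightly lower values in flutamide litters. Of the 76 members 55 had a difference below 0 (72.4%), against 47.7% of all genes tested. The share was 80.6% in complex I (25 of 31), 71.4% in complex III (5 of 7), 68.8% in complex IV (11 of 16), 73.3% in ATP synthase (11 of 15) and 50.0% in complex II (2 of 4). The median difference of the 73 subunit genes was -0.05, and that of all genes tested was 0.005. With each array centred on its own median 57 members lay below 0 (75.0%), against 50.2% of all genes. The counts at an unadjusted p under 0.05 were then again 4 lower, against 3.61% of all genes, and 1 higher, against 5.14%. These counts are descriptions, because the genes of a complex vary together from litter to litter and are not independent of each other.

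The count was smaller without corn oil replicate 1 and flutamide replicate 7 together, called the outer litters from here on. This pair was picked with earlier results known, as the arrays with the widest and the narrowest spread of values. It holds the highest corn oil and the lowest flutamide litter by the mean of these genes. Leaving it out therefore had to move their mean difference up, though not that of every gene. Leaving out any 1 litter kept 48 to 60 of the 76 members below 0. Without the outer litters, 36 of the 76 members lay below 0 (47.4%), against 47.2% of all genes, and the median difference of the subunit genes was 0.002. By complex, those below 0 were then 15 of 31 in complex I, 2 of 4 in complex II, 2 of 7 in complex III, 7 of 16 in complex IV and 9 of 15 in ATP synthase. Of the 55 members first below 0, 20 came to lie above 0 and 35 stayed below, while 1 of the 21 above 0 came to lie below. No gene of the whole table had an adjusted p under 0.05 in this fit. At an unadjusted limma p under 0.05 it left 2 members with lower values, Ndufa5 and Atp5f1d (2.63%, against 2.87% of all genes). It left 3 with higher values, Sdhc, Atp5f1a and Cox6c-ps1 (3.95%, against 4.13%).

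**Figure D1:**
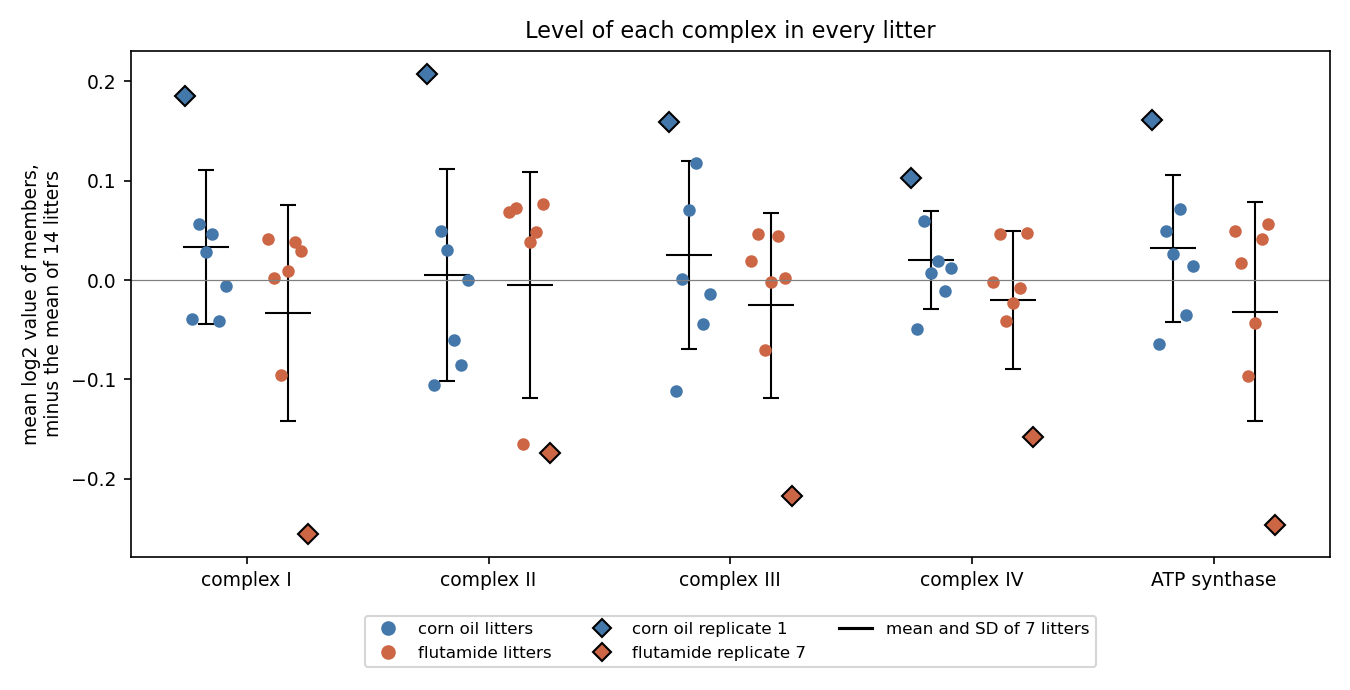
Mean log2 value of the members of each complex in every litter, as the deviation from the mean of the 14 litters (vertical axis, log2 units), with corn oil litters in blue, flutamide litters in orange and bars for the mean and SD of 7 litters. In all 5 complexes corn oil replicate 1 is the highest litter and flutamide replicate 7 the lowest, and the other litters overlap.

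The level of each complex in each litter shows both. For complex I, the mean log2 value over its 31 genes was 7.42 in corn oil replicate 1 and between 7.20 and 7.29 in the other 6 corn oil litters. It was 6.98 in flutamide replicate 7 and between 7.14 and 7.28 in the other 6 flutamide litters. The group means were 7.27 ± 0.08 for corn oil and 7.20 ± 0.11 for flutamide (SD, n = 7 each). Apart from these litters, the groups covered nearly the same range. ATP synthase had the same pattern, with 8.38 in corn oil replicate 1 against 8.15 to 8.29 in the other corn oil litters, and 7.97 in flutamide replicate 7 against 8.12 to 8.28 in the other flutamide litters. Its group means were 8.25 ± 0.07 and 8.19 ± 0.11 (SD, n = 7 each).

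Complexes III and IV also had their ends in these litters. Complex III means were 7.99 in corn oil replicate 1 and 7.61 in flutamide replicate 7, and the other 12 litters lay between 7.71 and 7.94. For complex IV the litters were closer together, with 7.88 and 7.62 at the ends and 7.72 to 7.83 between them. Complex II was the exception in how far flutamide replicate 7 stood apart, since its mean of 7.36 was close to the 7.37 of flutamide replicate 3, with corn oil replicate 1 at 7.74.

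Single members followed the same order. Corn oil replicate 1 was the highest of the 14 litters for 28 of the 76 members (36.8%), against 9.86% of all genes tested. Flutamide replicate 7 was the lowest for 38 members (50.0%), against 12.4% of all genes. For complex I these counts were 14 and 17 of 31 genes. Flutamide replicate 3 came next, as the lowest litter for 12 members.

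The outer litters had been picked as those with the widest and the narrowest spread of array values. Their place at the ends of that spread therefore follows from the choice. The SD of all log2 values on an array was highest in corn oil replicate 1, at 1.76, and lowest in flutamide replicate 7, at 1.68, with a median of 1.72. Members are mostly bright, with 64 of the 76 in deciles 8 to 10 of the genes by level. Among all 1450 genes of decile 10, the brightest, the median deviation from the mean of 14 litters was 0.04 in corn oil replicate 1 and -0.10 in flutamide replicate 7. In decile 9 these medians were 0.06 and -0.11. In decile 1, the dimmest, they had the opposite signs, -0.09 and 0.08. For the members the mean deviations were 0.15 and -0.22. Those of cytosolic ribosomal protein genes were 0.15 and -0.18, of mitochondrial ones 0.11 and -0.12, and of electron carriers 0.17 and -0.10. Citric acid cycle and glycolysis genes each had 0.08 and -0.13, assembly factors 0.06 and -0.06, and regulators of mitochondrial biogenesis 0.04 and -0.08. With the SD of the array as a covariate the median difference of the subunit genes was -0.02, and 43 members lay below 0. Some marker lists of other cells also deviated in these litters. In corn oil replicate 1 the mean of the macrophage list stood 0.33 above the mean of all litters, endothelium 0.32 and red blood cells 0.36, and in flutamide replicate 7 the deviations of these 3 lists were -0.08, -0.13 and -0.12. Macrophage means ran from 5.98 to 6.37 in corn oil and from 5.91 to 6.15 in flutamide litters, with 6 of 6 markers measured. Endothelium ran from 7.13 to 7.55 and from 7.08 to 7.34 (5 of 5 markers), and red blood cells from 6.31 to 6.99 and from 6.45 to 6.78 (4 of 7 markers). The other cell marker lists stood closer to the mean in corn oil replicate 1, with mast cells at 0.19, adipocytes at 0.13 and smooth muscle at 0.09. Basal keratinocytes were at 0.04, fibroblasts at 0.04, skeletal muscle at -0.02 and cornified keratinocytes at -0.05. In flutamide replicate 7 the lowest cell marker lists were skeletal muscle at -0.17 and basal keratinocytes at -0.15. The part of array spread or of these cells in the level of the subunit genes was not tested.

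**Figure D2:**
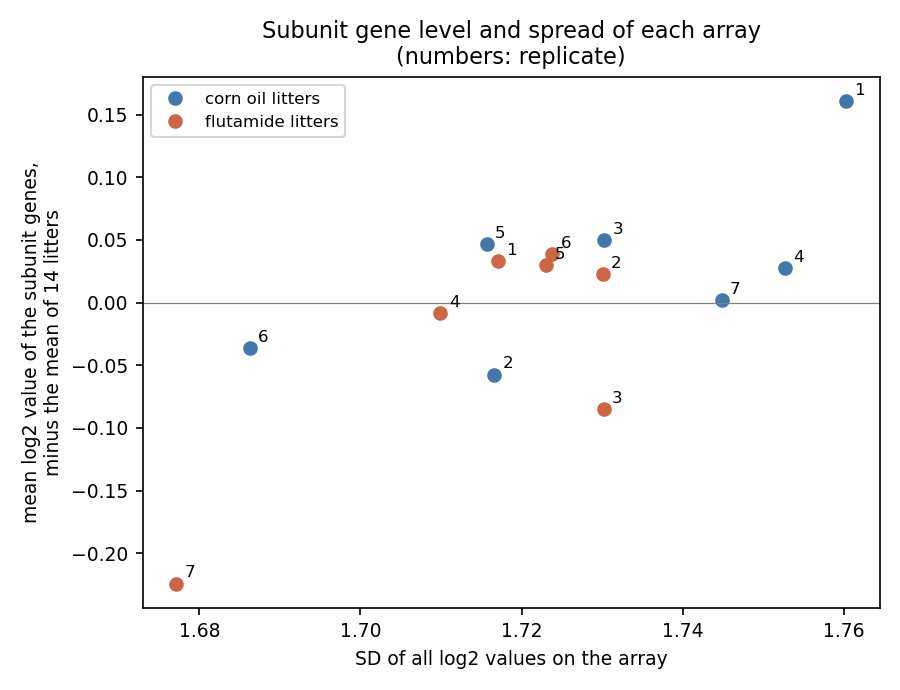
Mean log2 value of the 73 subunit genes, as the deviation from the mean of the 14 litters (vertical axis, log2 units), against the SD of all log2 values on the array (horizontal axis, log2 units), 1 point for each litter, labelled with its replicate number. Corn oil replicate 1, with an SD of 1.76, is highest and flutamide replicate 7, with 1.68, is lowest. Both had been picked for their SD. Corn oil replicate 6, with an SD of 1.69, lies near the other litters.

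The members varied together over the litters. After group means were taken out, the mean Pearson correlation between pairs of members over the 14 litters was 0.303, against 0.00554 for all pairs of genes tested and 0.186 for pairs within decile 10 by level. Within complexes it was 0.343 in complex I, 0.334 in complex II, 0.385 in complex III, 0.337 in ATP synthase and 0.119 in complex IV. Cytosolic ribosomal protein genes had 0.350 and mitochondrial ribosomal protein genes 0.131. Without the outer litters the members' value was 0.140, that of complex I 0.130 and that of decile 10 0.132. These are descriptions of genes that were measured on the same arrays and normalised together. The 5 other genes most like the complex I mean over the 14 litters were Sap18 (Pearson r = 0.947), Iscu (0.947), Psmb1 (0.940), Dr1 (0.930) and Pomp (0.927), and without the outer litters these values lay between 0.733 and 0.884.

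The 250 bases before the RefSeq start of transcription were read for 66 of the 76 members, on the GRCr8 assembly. The NRF-1 motif, GCGCA followed by any base and GCGC (either strand), was found in 10 of the 66 windows (15.2%), against 6.62% of 12513 windows of the genes tested and 3.75% of all 33469 windows. The ETS motif CCGGAAG (either strand) was found in 19 (28.8%), against 11.2% and 7.27%. The YY1 motif AAGATGGCG and the ERR motif TCAAGGTCA were found in 1 window each (1.52%), against 0.903% and 0.208% of the windows of genes tested. The CCAAT box (letters CCAAT) was found in 22 (33.3%), against 35.4%, and the TATA box (letters TATAAA) in 5 (7.58%), against 11.1%. The ETS motif ends in the letters with which the YY1 motif begins, so that their matches can share bases. The median GC share was 55.8% for members and 57.2% for the genes tested. No NRF-1 match lay in the 13 windows of complex IV genes, and 5 of the 29 windows of complex I genes held at least 1. The windows below belong to the subunit genes with the smallest p-values in complexes I and III and ATP synthase that had a sequence, and to a pair of complex II genes whose differences lay on opposite sides of 0, with matches to the NRF-1, ETS, YY1 and ERR motifs in capitals.
Ndufa5 (GRCr8 chr4:53971236-53971485, - strand): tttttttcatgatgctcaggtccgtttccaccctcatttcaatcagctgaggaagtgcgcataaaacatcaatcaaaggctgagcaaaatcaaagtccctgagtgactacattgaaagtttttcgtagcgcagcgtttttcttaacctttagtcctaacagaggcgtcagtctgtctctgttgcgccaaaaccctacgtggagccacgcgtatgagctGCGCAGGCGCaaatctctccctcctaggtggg
Uqcrq (GRCr8 chr10:38089979-38090228, - strand): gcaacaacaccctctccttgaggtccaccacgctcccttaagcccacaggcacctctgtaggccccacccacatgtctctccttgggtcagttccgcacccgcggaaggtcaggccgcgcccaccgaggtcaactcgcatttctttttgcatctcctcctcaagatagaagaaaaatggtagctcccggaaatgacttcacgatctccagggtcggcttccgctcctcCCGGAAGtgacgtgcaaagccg
Atp5f1d (GRCr8 chr7:10214351-10214600, - strand): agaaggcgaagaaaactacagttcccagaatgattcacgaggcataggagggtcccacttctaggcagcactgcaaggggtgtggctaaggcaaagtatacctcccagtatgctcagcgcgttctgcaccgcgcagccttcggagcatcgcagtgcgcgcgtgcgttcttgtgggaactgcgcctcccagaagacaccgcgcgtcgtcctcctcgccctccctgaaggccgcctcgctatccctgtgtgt
Sdhb (GRCr8 chr5:158547684-158547933, + strand): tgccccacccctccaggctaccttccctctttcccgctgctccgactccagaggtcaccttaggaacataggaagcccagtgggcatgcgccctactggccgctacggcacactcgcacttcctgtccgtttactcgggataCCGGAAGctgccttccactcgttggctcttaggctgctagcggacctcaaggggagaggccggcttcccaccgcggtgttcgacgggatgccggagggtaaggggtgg
Sdhc (GRCr8 chr13:86098026-86098275, - strand): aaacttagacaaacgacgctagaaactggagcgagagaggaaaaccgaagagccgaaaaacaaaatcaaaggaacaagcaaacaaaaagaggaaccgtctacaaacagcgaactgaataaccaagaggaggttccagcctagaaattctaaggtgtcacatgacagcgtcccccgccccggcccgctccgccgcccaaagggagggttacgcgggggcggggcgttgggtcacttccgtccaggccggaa
In the Ndufa5 window the capitals are an NRF-1 match whose first base is 32 bases before the start. In the Uqcrq and Sdhb windows they are ETS matches, 22 and 108 bases before it. The windows of Atp5f1d and Sdhc hold none of these 4 motifs, which says only that these letters are not in the windows. Uqcrb was not among the promoters read.

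Complex I is the largest of the complexes. Its 6 measured core subunits, most of which carry the flavin or iron-sulphur clusters, had differences from -0.09 to 0.07. Their median was -0.01, and 3 of the 6 lay below 0. The 25 accessory subunits, which surround the core, had a median of -0.06 with 22 of 25 below 0 (88.0%), against 47.7% of all genes. The medians were 0.05 for the core and -0.003 for the accessory subunits, with 2 of 6 and 13 of 25 below 0, when the outer litters were left out. Whether the core and accessory genes differed from each other was not tested.

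Ndufa5, an accessory subunit of the arm that reaches into the matrix, had the smallest p-value of all members (probe set 10861333, NCBI gene 25488). Corn oil litters had log2 values from 7.68 to 8.06 with a median of 7.93, and flutamide litters from 7.42 to 7.83 with a median of 7.62. All 7 flutamide litters were below the corn oil median, and the ranges overlapped. The difference was -0.24 (SE 0.08), a 0.848-fold level, with a limma adjusted p of 0.363. It was -0.26 without the outer litters, which were not at the ends for this gene (7.78 and 7.71), and leaving out any 1 litter gave -0.27 to -0.20. The difference was thus about as large with and without these litters.

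Ndufb11, an X-linked accessory subunit of the membrane arm, had values from 7.91 to 8.22 in corn oil and from 7.66 to 7.98 in flutamide litters, with medians of 7.99 and 7.90 (probe set 10932128). Its highest value was that of corn oil replicate 1 and its lowest that of flutamide replicate 7, and all 7 flutamide litters were below the corn oil median. The difference of -0.14 (SE 0.06; limma adjusted p = 0.516) was -0.07 without the outer litters. Ndufa3 and Ndufb7, accessory subunits of the membrane arm, also had their highest value in corn oil replicate 1 and their lowest in flutamide replicate 7, with 5 and 6 of 7 flutamide litters below the corn oil median. Ndufa3 differed by -0.23 (SE 0.11; limma adjusted p = 0.553), and by -0.11 without the outer litters, and its lowest value of 5.04 was in flutamide replicate 7. Ndufb7 differed by -0.16 (SE 0.08; limma adjusted p = 0.556), and by -0.07 without them, with its highest value of 7.42 in corn oil replicate 1.

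Of the core subunits, Ndufs7 had the highest difference, 0.07 (SE 0.07), and Ndufs3 the lowest, -0.09 (SE 0.08). Ndufs1, which holds iron-sulphur clusters, differed by 0.004, and its interval ran from -0.12 to 0.13. Ndufs8 differed by 0.02, Ndufv1, which binds NADH and FMN, by -0.03 and Ndufv2 by -0.08. Ndufv1 differed by 0.06 without the outer litters. The lowest limma adjusted p of a core subunit was 0.755, for Ndufs3.

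Complex II has 4 subunits, and they fell to both sides of 0. Sdha, the flavoprotein that oxidises succinate, had a median of 7.39 in corn oil and 7.34 in flutamide litters and was lowest in flutamide replicate 7. It differed by -0.09 (SE 0.08; limma adjusted p = 0.757), by -0.04 without flutamide replicate 7 and by -0.01 without the outer litters. Sdhb, the iron-sulphur subunit, had values from 6.50 to 7.06 and from 6.20 to 6.77, a difference of -0.17 (SE 0.10; limma adjusted p = 0.626). The medians of Sdhb were nearly equal, 6.59 in corn oil and 6.60 in flutamide litters, and its corn oil mean included a value of 7.06 in replicate 1.

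The membrane anchor subunits of complex II had higher values in flutamide litters. Sdhc had a median of 8.09 in corn oil, with a range from 7.96 to 8.33, and of 8.33 in flutamide litters, with a range from 8.01 to 8.42. Its difference was 0.13 (SE 0.08; limma adjusted p = 0.685), and 0.20 (SE 0.08; limma adjusted p = 0.664) without the outer litters. Sdhd had a median of 7.93 in corn oil and 8.08 in flutamide litters, with ranges from 7.85 to 8.01 and from 7.79 to 8.16. Its difference was 0.09 (SE 0.07; limma adjusted p = 0.701), and 0.14 without the outer litters. In both genes 5 of 7 flutamide litters lay above the corn oil median, and flutamide replicate 7 was among the lowest. The difference between the anchor and the catalytic subunits was not tested.

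**Figure D3:**
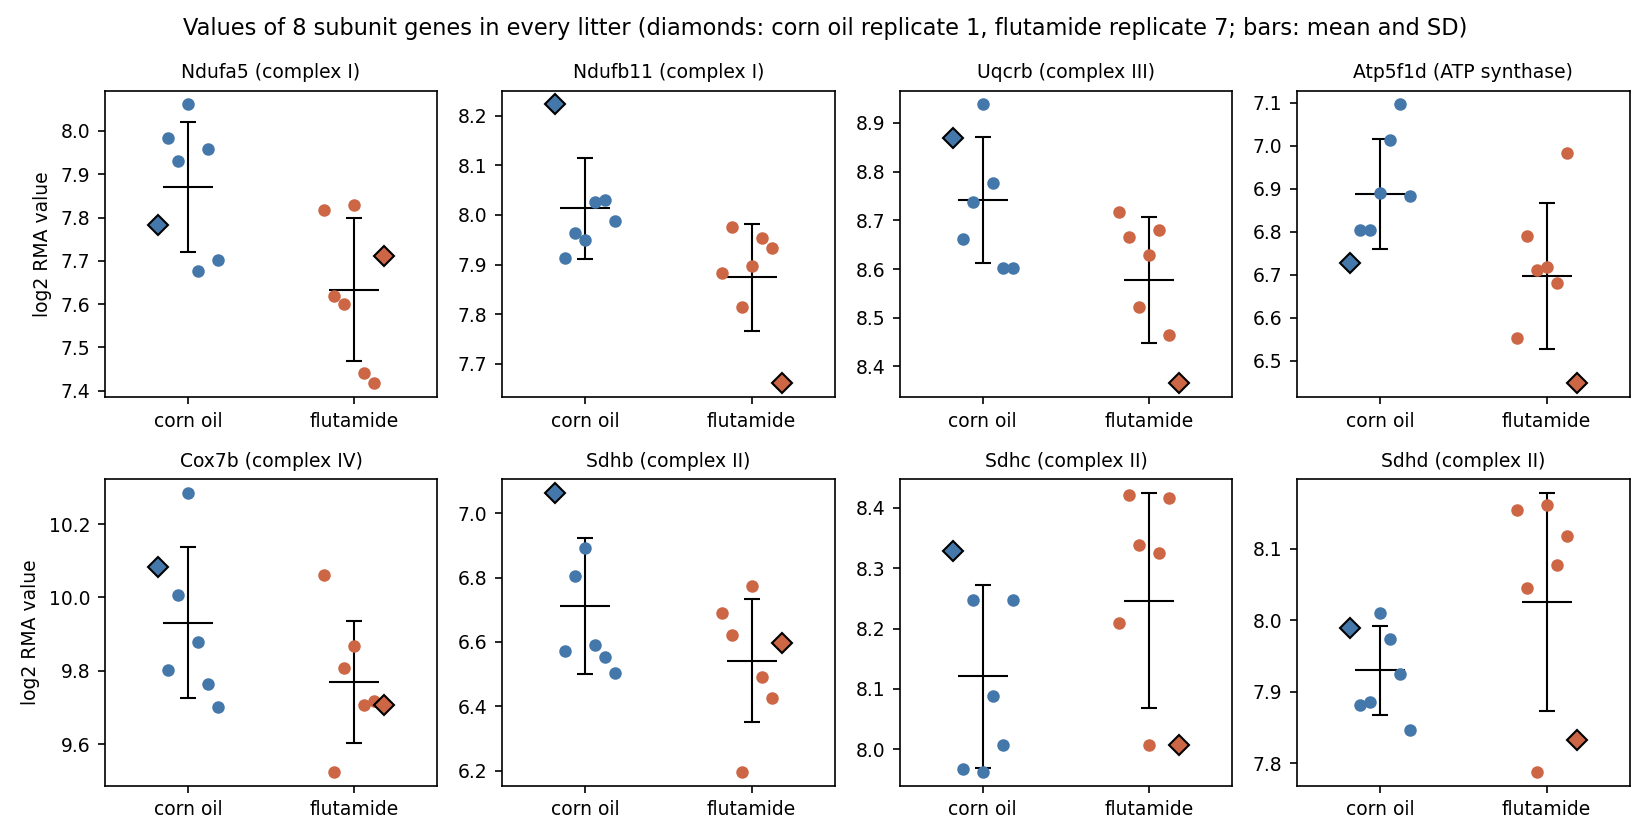
Log2 RMA values (vertical axes) of 8 subunit genes in the 7 corn oil (blue) and 7 flutamide (orange) litters, with bars for the mean and SD and diamonds for corn oil replicate 1 and flutamide replicate 7. The groups overlap in every panel; Ndufa5 has its diamonds inside the range of its group, while in Ndufb11 they are the highest and lowest of all litters.

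Complex III held the other gene of the electron chain at an unadjusted limma p under 0.05. Uqcrb, a small subunit also known as the ubiquinone-binding protein, had values from 8.60 to 8.94 in corn oil and from 8.37 to 8.72 in flutamide litters (probe set 10903189, NCBI gene 362897). All 7 flutamide litters lay below the corn oil median of 8.74. The difference was -0.16 (SE 0.07; limma adjusted p = 0.502), and -0.11 without the outer litters. Its dimmer probe set, 10706236, differed by -0.40 (SE 0.15; limma adjusted p over all 28826 probe sets = 0.403). Uqcrq, a small subunit bound to cytochrome b, differed by -0.18 (SE 0.09; limma adjusted p = 0.574), with values from 6.89 to 7.40 in corn oil and from 6.66 to 7.13 in flutamide litters. All 7 flutamide litters were below the corn oil median here too, and the difference was -0.09 without the outer litters.

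The large core proteins of complex III showed smaller differences. Uqcrc2 differed by 0.06 (SE 0.06), and 5 of 7 flutamide litters were above its corn oil median. Uqcrc1 differed by -0.02 (SE 0.06), and Uqcrfs1, the Rieske iron-sulphur protein, by 0.03 (SE 0.07). Uqcrh, the hinge protein that binds cytochrome c1, differed by -0.04 (SE 0.07), and by 0.03 without the outer litters.

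Complex IV had the smallest spread between litters and no member at an unadjusted limma p under 0.05. Its smallest p-value was that of Cox8b, the muscle form of subunit 8, with dim values from 3.92 to 4.41 in corn oil and from 4.25 to 4.42 in flutamide litters. Its difference was 0.14 (SE 0.07; limma adjusted p = 0.568), with all 7 flutamide litters above the corn oil median. Cox7b, a small X-linked subunit, had values from 9.70 to 10.28 in corn oil and from 9.53 to 10.06 in flutamide litters. Its difference was -0.16 (SE 0.09; limma adjusted p = 0.619). Cox5b differed by -0.14 (SE 0.08; limma adjusted p = 0.630) and Cox7a2l, a protein that joins complexes into supercomplexes, by -0.13 (SE 0.09; limma adjusted p = 0.702), and these became -0.06 and -0.03 without the outer litters.

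The isoforms of complex IV subunits gave no call either. Cox4i1, the widespread form of subunit 4, differed by -0.13 (SE 0.10), with values from 7.97 to 8.43 in corn oil and from 7.66 to 8.56 in flutamide litters, and by -0.02 without the outer litters. Cox4i2, its form in lung and in oxygen-sensing cells, differed by -0.03 (SE 0.09). Cox6a1 differed by -0.02 (SE 0.07) and its muscle form Cox6a2 by 0.0007 (SE 0.08). Cox8a differed by 0.02 (SE 0.06) and Cox8c, a testis form, by 0.09 (SE 0.08). Cox6b2, also known from testis, differed by -0.10 (SE 0.08), and Cox7a2 by -0.07 (SE 0.07). For all 16 complex IV genes the interval of the brightest probe set left out 1.3-fold. Ndufa4, named for complex I and known as a subunit of complex IV, differed by -0.03 (SE 0.06), and Cox5a by -0.007 (SE 0.05).

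Skeletal muscle markers are given beside the muscle forms. In the skeletal muscle list 8 of 10 measured genes lay below 0, against 47.7% of all genes, and none passed. The list's median difference was -0.15, or -0.14 without the outer litters. Its mean ran from 5.78 to 6.23 in corn oil and from 5.63 to 6.13 in flutamide litters. Ckm, muscle creatine kinase, differed by -0.19 (SE 0.07; limma adjusted p = 0.443). The muscle forms Cox6a2 and Cox8b differed by 0.0007 and 0.14, and by -0.08 and 0.16 without the outer litters. The difference of Cox6a2 was also below 0 under 5 of the other settings tried with all litters. Smooth muscle and pericyte genes had lower values in flutamide litters for 9 of 9 measured, 4 of them at an unadjusted limma p under 0.05 (against 3.46% of all genes) and none passing. Their median difference was -0.14, and -0.20 without the outer litters. The mean of this list ran from 6.98 to 7.21 in corn oil and from 6.75 to 7.02 in flutamide litters. Higd1b, a pericyte marker, differed by -0.38 (SE 0.07; limma adjusted p = 0.179). The part of skeletal or smooth muscle content in the values of the subunit genes was not tested.

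ATP synthase had the lowest median difference of the complexes, -0.10, and -0.02 without the outer litters. Within the catalytic F1 head, the alpha, beta and gamma subunit genes lay above 0 and those of the small delta and epsilon subunits below. Atp5f1a differed by 0.07 (SE 0.07), Atp5f1b by 0.03 (SE 0.06) and Atp5f1c by 0.07 (SE 0.06). Atp5f1d, the delta subunit of the central stalk, had values from 6.73 to 7.10 in corn oil and from 6.45 to 6.98 in flutamide litters (probe set 10900601, NCBI gene 245965). Its medians were 6.88 and 6.71, and 6 of 7 flutamide litters lay below the corn oil median. The difference was -0.19 (SE 0.08; limma adjusted p = 0.471), and -0.18 without the outer litters, with flutamide replicate 7 lowest and corn oil replicate 1, at 6.73, the lowest of its group.

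Atp5f1e, the epsilon subunit, differed by -0.15 (SE 0.07; limma adjusted p = 0.565), and by -0.08 without the outer litters. Its value was 6.96 in flutamide replicate 7 and between 7.22 and 7.33 in the other 6 flutamide litters. The 10 subunits outside the F1 head had a median difference of -0.10, with 9 below 0 and Atp5mc1, one of the genes for the c ring, above it at 0.06, where 47.7% of all genes lay below 0. With the outer litters left out the median of these 10 was -0.03, with 7 below 0. Among them Atp5pb, subunit b of the peripheral stalk, differed by -0.10 (SE 0.06; limma adjusted p = 0.604), with corn oil litters between 9.06 and 9.17 and flutamide litters between 8.81 and 9.14. Atp5po, the protein that joins this stalk to the F1 head, differed by -0.11 (SE 0.06; limma adjusted p = 0.617). Atp5mc3, another c ring gene and the brightest member, differed by -0.06 (SE 0.07). The inhibitor gene Atp5if1 had values from 9.32 to 9.59 in corn oil and from 9.24 to 9.44 in flutamide litters, a difference of -0.06 (SE 0.06).

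**Figure D4:**
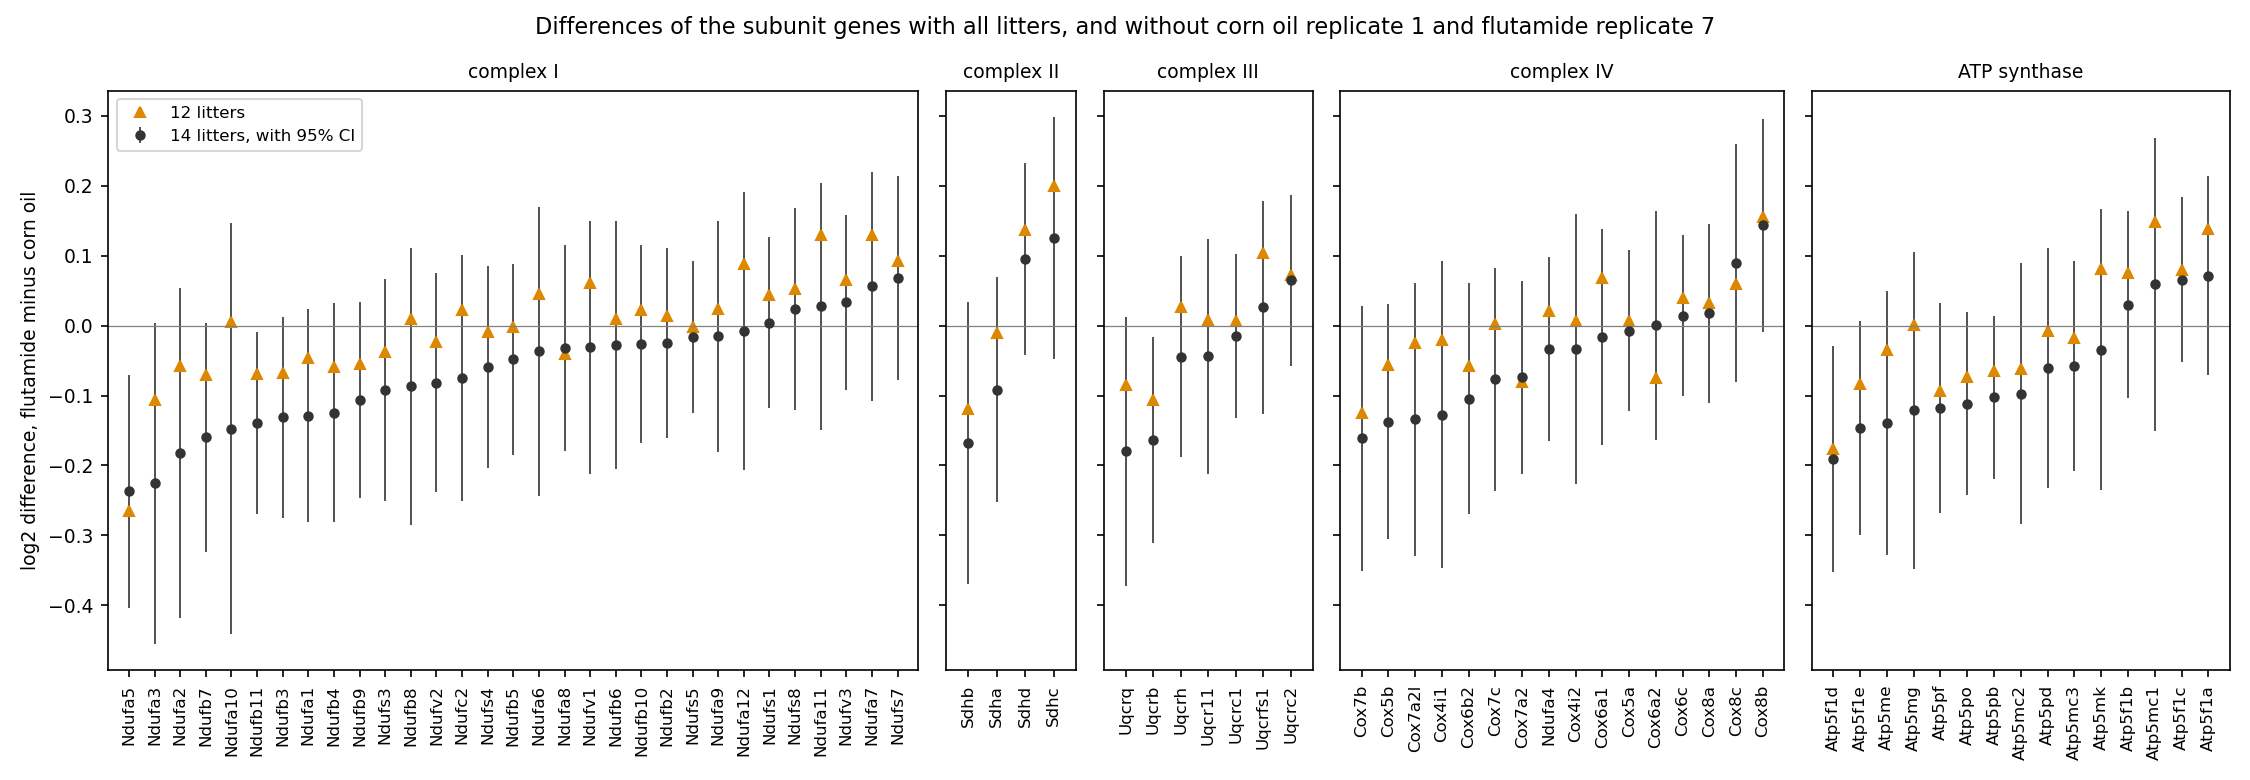
Log2 difference of flutamide from corn oil litters (vertical axis) for each subunit gene, by complex and in order of its difference, with black points and 95% confidence intervals for all 14 litters and orange triangles for the 12 litters that remain when the outer litters, corn oil replicate 1 and flutamide replicate 7, are left out. Most black points of complex I and ATP synthase lie below 0, with medians of -0.05 and -0.10, and most triangles lie nearer to 0 or above it.

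Pseudogenes and second probe sets gave values of their own. Cox6c-ps1 was the member with higher values in flutamide litters at an unadjusted p under 0.05. Its values were dim, with means of 4.72 ± 0.11 in corn oil and 4.92 ± 0.14 in flutamide litters (SD, n = 7 each), and its difference of 0.20 (SE 0.07) had a limma adjusted p of 0.368. Cox6c itself differed by 0.01 (SE 0.05). There were 10 members with a second, dimmer probe set, and in 5 of them it differed from the brighter one in sign. Ndufv3 differed by 0.03 on the brighter and by -0.15 on the dimmer one, and Cox7a2 by -0.07 and -0.21. Ndufs5 differed by -0.02 (SE 0.05) and 0.33 (SE 0.30), and Ndufs6-ps1 by 0.01 (SE 0.06) and -0.44 (SE 0.23). The limits of 1.5-fold and 1.3-fold given above hold for the brightest probe sets only. Whether near-identical copies share probes was not tested.

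Genes that act around the complexes gave no call. Of all genes tested 47.7% lay below 0. Of 32 measured assembly factors 17 lay below 0, with a median of -0.006, and none passed. Ndufaf1, an assembly factor of complex I, differed by -0.29 (SE 0.09; limma adjusted p = 0.348), Cox18 by 0.17 (SE 0.07; limma adjusted p = 0.490) and Lyrm7, an assembly factor of complex III, by -0.25 (SE 0.10; limma adjusted p = 0.496). Electron carriers had 4 of 6 below 0, with a median of -0.02. For the citric acid cycle and pyruvate dehydrogenase 10 of 14 lay below 0, with a median of -0.02. Of the regulators of mitochondrial biogenesis 14 of 18 lay below 0, with a median of -0.04, and Ppargc1b, a coactivator of mitochondrial genes, differed by 0.16 (SE 0.07; limma adjusted p = 0.501). Without the outer litters, 13 assembly factors, 2 electron carriers, 3 citric acid cycle genes and 11 regulators lay below 0, where 47.2% of all genes did.

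Both kinds of ribosomal protein genes had medians like that of the subunit genes. Of 68 mitochondrial ribosomal protein genes 45 lay below 0, against 47.7% of all genes, with a median of -0.04, and none passed. At an unadjusted limma p under 0.05 there were 9 with lower values, against 3.46% of all genes, the first by p-value being Mrps5 with -0.21 (SE 0.06; limma adjusted p = 0.348). Of 70 cytosolic ribosomal protein genes 53 lay below 0, with a median of -0.04. At an unadjusted limma p under 0.05, 4 had lower and 1 higher values, against 3.46% and 5.7% of all genes. This list was taken by symbol and pseudogenes were not set apart. Rpl17-ps16, a pseudogene by its symbol, was among those with lower values, with -0.23 (SE 0.09; limma adjusted p = 0.423). The medians of the mitochondrial and cytosolic genes were -0.01 and -0.0001 without the outer litters. Glycolysis genes had a median of 0.03, with 10 of 16 above 0 and none passing, and of 0.07 without the outer litters. In this list the lactate dehydrogenase genes Ldha and Ldhb differed by 0.25 (SE 0.06; limma adjusted p = 0.302) and -0.19 (SE 0.07; limma adjusted p = 0.417).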

How the data were processed

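The authors deposited 1 log2 value per probe set and sample (28826 probe sets, 14 samples), made with RMA per the submitters' processing notes; its version and the genome build are not given here. RMA pulls together the values of dim probe sets, and normalisation between arrays removes shifts shared by most genes. The 15209 probe sets with 1 gene symbol were renamed by gene number through RefSeq's GRCr8 table (14471 of 14497 genes matched), and the brightest probe set per gene was kept.

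The test was the two-sided one of limma 3.58.1 (R 4.3.3), by lmFit and eBayes on all 14497 genes, whose p-values were adjusted together after Benjamini and Hochberg, with a threshold of 0.05. In simulated data with independent normal noise, 200 of the 14497 genes were changed, by 1.2-fold to 2-fold. The share of changed genes recovered was 36.0% at 1.2-fold, 69.6% at 1.3-fold and 93.6% at 1.5-fold. The adjustment is stricter when fewer genes change. These shares therefore need not hold for the measured data, where 0.0069% of all genes passed. Errors of differences are limma's standard errors. The number of arrays limits the precision.

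The members and lists were chosen with earlier results of these data known. Named were 4 members of each complex, by smallest p-value, all of complex II, complex I core subunits, complex IV isoforms, the brightest and dimmest members, and up to 3 genes in each other list described; further members named were chosen after their values were seen. Alternatives were other summaries, filters, scalings, models and litters left out. The replicate numbers are not said to pair litters, and deviations of same-numbered samples correlated by -0.07 to 0.15, over 0.1 in 1 of 7 pairs. The outer litters were left out because they were known from earlier results to stand apart, with the widest and the narrowest spread of array values.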

Additional observations from a re-analysis of the deposited data

Results flagged for a closer look

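Among 90 sets of 7 litters examined, 3 held a litter far from the others. Independent sets would give about 1 in 20 by chance. These sets share the same litters, so their count cannot be judged against that share. The complex I mean of 7.42 in corn oil replicate 1 stood above the other corn oil litters, at 7.20 to 7.29. For Ndufb11 the same litter had 8.22, against 7.91 to 8.03. For Atp5f1e flutamide replicate 7 had 6.96, against 7.22 to 7.33.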

How the results depend on the processing

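No member was called in any of the 27 fits. The outer litters are corn oil replicate 1 and flutamide replicate 7. The count of members below 0, 55, was 48 to 60 when any 1 litter was left out, 43 with the array SD as a covariate, between 53 and 57 in the other 14-litter fits, and 36 without the outer litters. With the replicate block it was again 55, and the block changed no call. Matching members on the platform's own symbols gave the same members. Without the outer litters 21 of the 76 members had another sign, among them Ndufa10 (-0.15 and 0.0049), Atp5mg (-0.12 and 0.00025) and Ndufb8 (-0.09 and 0.0088). Of the members named by rule, these changed sign. Without the outer litters, Cox4i2 was 0.00698, Cox5a was 0.00656, Cox6a1 was 0.0685, Cox6a2 was -0.0755, Ndufa4 was 0.0211, Ndufv1 was 0.0616 and Uqcrh was 0.0261. With the array SD as a covariate, Cox5a was 0.00976, Cox6a1 was 0.0240, Cox6a2 was -0.0126, Ndufa4 was 0.00100, Ndufv1 was 0.0243 and Uqcrh was 0.00546. With arrays scaled to the same SD, Cox5a was 0.0210, Cox6a1 was 0.00228 and Cox6a2 was -0.00231. Over the mean of all probe sets of a gene, Cox5a was 0.0491. With quantile normalisation, Cox5a was 0.00923 and Cox6a2 was -0.00229. With array weights, Cox6a1 was 0.0182 and Cox6a2 was -0.0234. With arrays centred on their medians, Cox6a2 was -0.00447 and Ndufs1 was -0.000873. With litters left out, single or both outer ones, the ranges were -0.0765 to 0.0166 for Cox4i2, -0.0394 to 0.0119 for Cox5a, -0.0470 to 0.0685 for Cox6a1, -0.0755 to 0.0448 for Cox6a2, -0.00399 to 0.0471 for Cox8a, -0.0646 to 0.0211 for Ndufa4, -0.0192 to 0.0441 for Ndufs1, -0.00405 to 0.0660 for Ndufs8, -0.0856 to 0.0616 for Ndufv1 and -0.0741 to 0.0261 for Uqcrh. The cause was not tested. The median of the subunit genes, -0.05, became -0.08 without corn oil replicate 6, -0.03 without corn oil replicate 1 and -0.02 without flutamide replicate 7, and that of complex III turned to 0.0034 without corn oil replicate 5. Flutamide replicate 7 also moved the medians of complex I to -0.01, complex II to 0.04 and ATP synthase to -0.06 when left out. Dim values such as those of Cox8b and Cox8c are the least certain.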
